A study of Homo sapiens with 12 samples.

Results

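The lysosome is described here through 37 genes for its digestive enzymes, their helpers, its membrane proteins, its proton pump and 2 transcription factors that drive such genes. They were chosen by gene symbol from the 59276 symbols of the deposited table, and all 37 symbols have a row in it. By role they are 11 peptidases, 8 glycosidases, 8 lipid enzymes, carriers and activators, 5 membrane proteins, 3 subunits of the vacuolar ATPase (V-ATPase) and the factors TFEB and TFE3.

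JJN3 is a human cell line from multiple myeloma, a cancer of antibody-secreting plasma cells, and its RNA was sequenced in 4 groups of 3 samples. The study asked how JJN3 mRNA responds when protein arginine methylation is blocked by a compound or by loss of an enzyme. Wildtype JJN3 cells received DMSO or 10 µM MS023, an inhibitor of type I protein arginine methyltransferases, for 3 days. The other 2 groups are JJN3 cells with an inducible guide RNA, isgCtrl with a control guide and PRMT1-KO with the guide iPRMT1_1 against PRMT1, the main type I enzyme, after 3 days of doxycycline (Dox). Both guide groups also carry Cas9 with an mCherry reporter from a lentivirus and a puromycin resistance gene, were sorted and selected for these, and received Dox, none of which is stated for the DMSO and MS023 cells. PRMT1-KO rests on 1 guide in a selected population with no cloning step stated, so cells with and without an edited gene may have been measured together. The study's methods speak in general of at least 3 independent experiments. For these RNA samples no separate cultures are stated, so p-values measure the spread between the 3 samples of a group, which may be technical. In bulk RNA, fewer cells with a transcript and less transcript per cell cannot be told apart.

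Lysosomes are acidic compartments in which proteins, sugars and lipids from endocytosis and autophagy are broken down. The V-ATPase pumps in the protons that most of the enzymes need, soluble enzymes travel there on mannose 6-phosphate receptors or other sorting receptors, and glycosylated proteins such as LAMP1 line the membrane. TFEB and TFE3, of the MiT/TFE family, bind an E-box with the core CACGTG near many lysosomal genes, and the kinase mTORC1 keeps them in the cytoplasm by phosphorylation, which mRNA levels do not show. Plasma cells secrete large amounts of antibody and are known to depend on autophagy as well as on the proteasome.

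The MiT/TFE factors are known to bind the core CACGTG, so stretches before the start sites of 7 genes are shown with it in capitals. They were taken from RefSeq windows of GRCh38.p14 that reach from 250 bases before a start to 50 after it, and are written 5′ to 3′ on the strand of the gene. LAMP1 has the most cores, and the stretch holds 4 of its 6, at chr13:113297039-113297118 on the plus strand. CTSA has 2 cores within 30 bases at chr20:45891288-45891317 on the plus strand, upstream of the RefSeq start but within the gene as GENCODE v44 draws it. NEU1 is at chr6:31862906-31862985, CTSD at chr11:1763965-1764044 and ATP6V0D1 at chr16:67481182-67481261, all on the minus strand. The CTSD stretch, like that of CTSA, lies within the gene as GENCODE v44 draws it. MCOLN1 is at chr19:7522544-7522623 and GAA at chr17:80101453-80101532, both on the plus strand.
LAMP1: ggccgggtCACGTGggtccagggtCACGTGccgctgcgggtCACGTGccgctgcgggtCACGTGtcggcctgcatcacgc
CTSA: actgtCACGTGgcgccggagttCACGTGac
NEU1: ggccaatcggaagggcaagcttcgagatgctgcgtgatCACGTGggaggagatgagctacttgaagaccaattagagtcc
CTSD: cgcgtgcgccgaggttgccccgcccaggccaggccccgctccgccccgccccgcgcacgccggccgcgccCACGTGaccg
ATP6V0D1: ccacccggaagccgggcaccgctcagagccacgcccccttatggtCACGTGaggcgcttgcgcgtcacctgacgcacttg
MCOLN1: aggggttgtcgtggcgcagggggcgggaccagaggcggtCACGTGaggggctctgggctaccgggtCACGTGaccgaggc
GAA: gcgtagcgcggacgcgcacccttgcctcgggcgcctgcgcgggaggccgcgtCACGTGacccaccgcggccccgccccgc

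In these stretches each core has a T before it or an A after it, and either was counted as the flank. Both belong to the longer element to which TFEB is known to bind. The LAMP1 cores shown and that of NEU1 have the T but not the A. The genes shown are those with such a flank, so no result is read from its presence. Windows were given for 28 of the 37 genes, and not for ASAH1, ATP6V1H, CTSB, CTSK, CTSS, HEXA, LAMP2, LGMN and PSAP. CACGTG, which reads the same on both strands, was in the window of 8 of the 28 genes (28.6%) and in 8.77% of all 27305 genes with a window. TCACGTG, which contains it and was searched on both strands, was in 7 (25.0%) against 4.49% of all genes. A gene counted when any of its windows held the letters, and some genes have several. By window, CACGTG was in 8 of 40 for these genes and in 7.26% of all 35116. TCACGTG was in 7 of the 40 and in 3.71% of all windows. The gene with the core but not the flank is CD63, whose stretch is not shown. A match says only that these letters lie in the window, and binding was not measured.

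**Figure D1:**
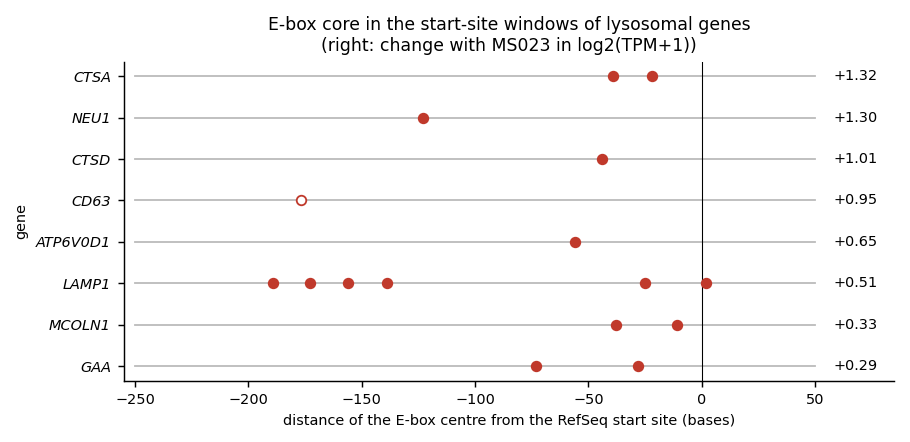
Positions of CACGTG in the windows of the 8 lysosomal genes that hold it. The x axis is the distance of its centre from the RefSeq start in bases, filled points have a T before or an A after the core and the open point does not, and the change with MS023 in log2(TPM+1) stands at the right. The cores lie before the start, apart from the core of LAMP1 that spans it, and the changes run from 0.29 for GAA to 1.32 for CTSA.

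Values are in TPM, transcript abundances scaled to transcript length and to the same total in every sample, so that levels can be compared between genes. Tests were run on the deposited log2(TPM+1). A gene was called when limma gave a Benjamini-Hochberg adjusted p under 0.05 over all genes tested and a difference in log2(TPM+1) above 0.48 in size, the limits of the study's methods. Genes with a group mean above 1 on that scale in either group were tested. Adding 1 makes the changes of low genes smaller on this scale. All calls and shares of called genes given here come from these fits and are not the study's own gene lists. With MS023 many more genes were called here than the study reports as changed, although the stated limits are the same. In PRMT1-KO the number called is close to the study's. The reason for the larger number with MS023 was not tested. The labels give a minimum sequencing depth, but the depth reached by each sample cannot be read from the values. Replicates of a group correlated across all genes with r of 0.992 to 0.995, and no sample stood apart.

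PRMT1 mRNA, from 49675786 to 49689029 of chromosome 19 on the plus strand, was 860 ± 9.15 TPM (SD, n = 3) in isgCtrl and 304 ± 4.34 TPM (SD, n = 3) in PRMT1-KO, a difference of -1.50 in log2(TPM+1) (Benjamini-Hochberg adjusted p of limma = 7.2e-04). It was 653 ± 18.3 TPM in DMSO and 673 ± 23.6 TPM with MS023 (SD, n = 3). The 12 markers of macrophages and monocytes, cells rich in lysosomes, summed to between 0.487 and 4.88 TPM in every sample. Of them, CSF1R, CD163, MRC1 and ITGAM had group means of at most 0.315 TPM. The 10 plasma cell markers summed to between 2766 and 12132 TPM.

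The 37 genes together made up 0.169% to 0.426% of all TPM. Their summed level was between 2325 and 2361 TPM in DMSO and between 4127 and 4257 TPM with MS023, so the MS023 mean was 1.79 times that of DMSO. In isgCtrl the sum was between 1685 and 1722 TPM and in PRMT1-KO between 1877 and 1922 TPM, a ratio of 1.11. No sample of a treated group overlapped its controls in either pair. CD63, a tetraspanin of late endosomes and lysosomes, and PSAP, the precursor of the saposins that help enzymes reach their lipids, had the highest levels. With GRN, CTSC and PPT1 they gave 46.6% to 48.0% of the sum in each group.

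**Figure D2:**
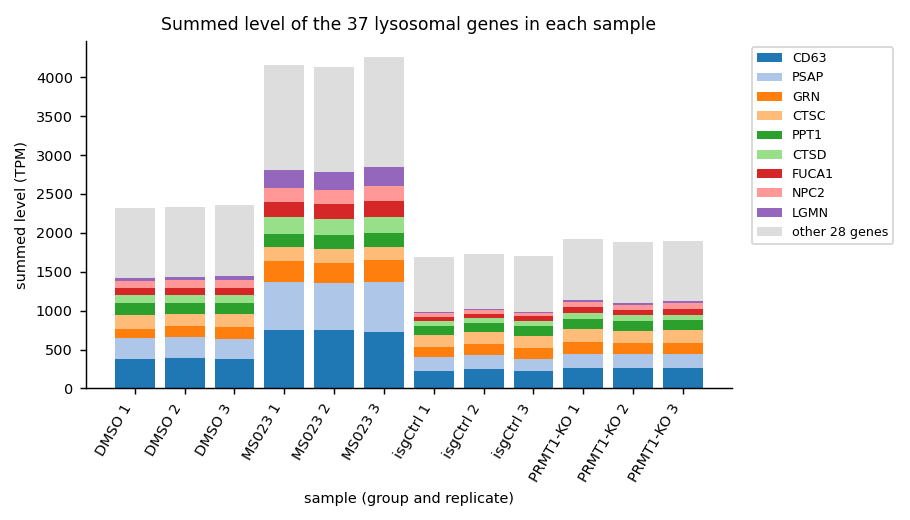
Summed level of the 37 genes in each of the 12 samples, in TPM on an axis from 0, with 9 genes of high level or large change coloured and the other genes in grey. The 3 MS023 bars stand between 4127 and 4257 TPM, above all other samples, and the isgCtrl bars are the lowest at 1685 to 1722 TPM.

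CD63 was 383, 386 and 382 TPM in DMSO and 756, 745 and 732 TPM with MS023. It was 230.3, 244 and 229 TPM in isgCtrl and 265, 260.1 and 258 TPM in PRMT1-KO. Both treated groups lay above their controls without overlap. PSAP was 261, 272 and 260 TPM in DMSO, 614, 613 and 632 TPM with MS023, 173, 188 and 154 TPM in isgCtrl and 181, 179 and 184 TPM in PRMT1-KO, with overlap in the second pair only. GRN, or progranulin, a secreted and lysosomal protein that is cut into granulins, was 127, 140.1 and 142 TPM in DMSO, 274, 260.0 and 281 TPM with MS023, 135, 140 and 140 TPM in isgCtrl and 152, 147 and 141 TPM in PRMT1-KO. CD63 and PSAP supplied 19.6% and 19.3% of the net rise of the sum with MS023, and LGMN, only 2.03% of the sum in DMSO, supplied 10.2%.

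CTSC and PPT1 were the genes of high level that were not called in either pair. CTSC, the dipeptidyl peptidase that activates granule proteases, was 179, 164 and 167 TPM in DMSO, 175, 180.0 and 176 TPM with MS023, 149, 153 and 157 TPM in isgCtrl and 164, 155 and 163 TPM in PRMT1-KO. PPT1, which removes fatty acyl groups from proteins, was 150.1, 140.2 and 145 TPM in DMSO and 172, 177 and 172 TPM with MS023, without overlap. Its values in isgCtrl were 116, 116 and 129 TPM and in PRMT1-KO 136, 127 and 138 TPM. The differences with MS023 were 0.06 for CTSC and 0.26 for PPT1 in log2(TPM+1).

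With MS023 20 of the 37 genes were called higher, led by the peptidases LGMN and CTSB. Another 2 were called lower, MAN2B1 and GUSB, and 15 were not called. Over all 12903 genes tested, 11.6% were called higher and 19.3% lower, 30.9% in all, so the set had more genes called higher than the background and fewer called lower. The difference was above 0 for 31 of the 37 genes and for 40.9% of all genes, and 26 had an adjusted p under 0.05 in limma at any fold change, against 48.8%. Its median difference was 0.50 in log2(TPM+1), against -0.11 for all genes tested. In 27 genes every MS023 sample lay above every DMSO sample, which held for 23.2% of all genes, and each of these had a two-sided exact permutation p of 0.1, the smallest that 3 against 3 samples allow. With TPM rescaled by median ratios, the share of all called genes that were lower went from 62.4% to 50.7%, and with quantile normalization to 50.1%, while the set had 20 and 22 genes called higher and 0 lower.

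**Figure D3:**
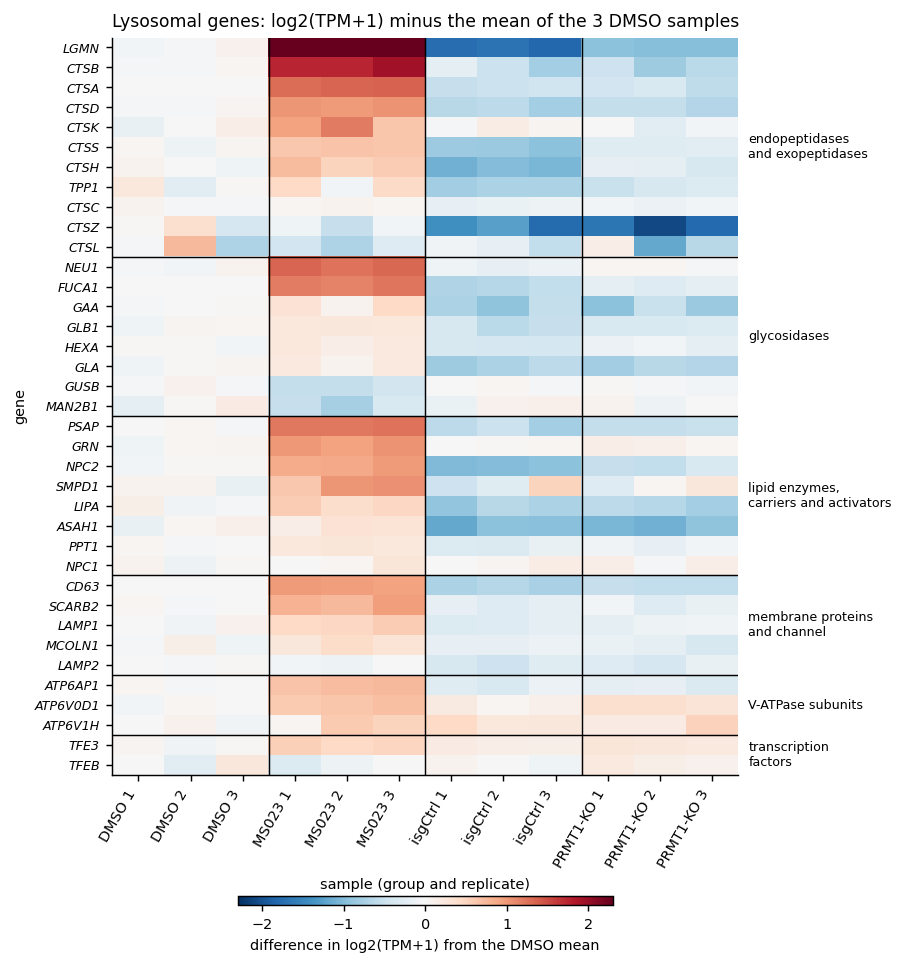
Heat map of the 37 genes (rows, grouped by role) in the 12 samples (columns). Colour gives log2(TPM+1) minus the mean of the 3 DMSO samples, red higher and blue lower. The MS023 columns are mostly red, with a group mean of 2.29 for LGMN, and the isgCtrl columns mostly blue, with a group mean of -1.75 for LGMN.

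Among the 11 peptidases 7 were called higher with MS023 and 0 lower. LGMN, on chromosome 14 from 92703807 to 92748679 on the minus strand, encodes legumain, which cuts after asparagine and matures several cathepsins. Its level was 45.4, 46.5 and 50.7 TPM in DMSO and 236, 235 and 236 TPM with MS023. The 3 treated samples were nearly equal and far above the controls. The mean was 496% of that in DMSO, a difference of 2.29 ± 0.07 (SE) in log2(TPM+1) (Benjamini-Hochberg adjusted p of limma = 4.65e-05). LGMN is among the genes the study displayed from these samples, so its rise is no independent evidence about the set.

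CTSB, the cysteine protease cathepsin B, was 34.3, 34.3 and 35.9 TPM in DMSO and 119, 120 and 135 TPM with MS023, or 358% of the control mean. The difference was 1.81 ± 0.07 (SE). CTSA, a carboxypeptidase that also holds NEU1 in an active complex, was 58.6, 59.5 and 58.1 TPM in DMSO and 144, 149 and 152 TPM with MS023, a difference of 1.32. CTSD, the main aspartic protease of the lysosome, was 101, 103 and 109 TPM in DMSO and 211, 207 and 214 TPM with MS023, a difference of 1.01. In all 3 genes the groups stood apart, and CTSA and CTSD are among the genes whose E-box stretches are printed above.

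CTSK, the collagen-degrading protease of osteoclasts, rose from a very low level, with 1.34, 1.65 and 1.94 TPM in DMSO and 3.98, 5.03 and 3.08 TPM with MS023, a difference of 0.92. CTSS, which trims the invariant chain of MHC class II in antigen-presenting cells, was 84.3, 74.6 and 85.5 TPM in DMSO and 125, 129 and 128 TPM with MS023, a difference of 0.64. CTSH, an aminopeptidase, was 51.6, 49.1 and 45.6 TPM in DMSO and 80.8, 69.6 and 73.7 TPM with MS023, a difference of 0.60. The groups did not overlap in any of the 3. CTSC, TPP1, CTSZ and CTSL were not called, with differences of 0.06, 0.28, -0.23 and -0.49. CTSL and CTSZ were low, at 2.34 ± 1.68 and 4.66 ± 1.45 TPM in DMSO (SD, n = 3), and their samples overlapped.

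The glycosidases, which take sugars off glycans and glycolipids, went both ways. NEU1, the lysosomal sialidase, was 48.3, 47.4 and 52.2 TPM in DMSO and 126, 119 and 124 TPM with MS023, a difference of 1.30. FUCA1, the alpha-L-fucosidase, was 86.4, 85.5 and 85.2 TPM in DMSO and 196, 191 and 203 TPM with MS023, a difference of 1.19. Both were called higher and neither overlapped. GUSB, the beta-glucuronidase, was called lower, at 83.8 ± 5.22 TPM in DMSO and 58.9 ± 3.00 TPM with MS023 (SD, n = 3), a difference of -0.50. MAN2B1, the acid alpha-mannosidase, was called lower too, at 35.3 ± 4.97 and 23.8 ± 3.51 TPM (SD, n = 3), a difference of -0.55.

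These 2 lower calls changed with the processing. Both fell under the fold threshold with either rescaling, at -0.40 and -0.41 for GUSB and -0.45 and -0.42 for MAN2B1. GUSB lost its call without DMSO replicate 2, and MAN2B1 without DMSO replicate 2 or 3 or MS023 replicate 1 or 2. The other 4 glycosidases, GAA (acid alpha-glucosidase), GLB1 (beta-galactosidase), HEXA (a subunit of beta-hexosaminidase) and GLA (alpha-galactosidase A), were not called, with differences of 0.29, 0.25, 0.20 and 0.18. In each of these 4 every MS023 sample was above every DMSO sample.

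Lipid handling had 5 of 8 genes called higher and 0 lower. PSAP and GRN, whose samples are given above, differed by 1.23 and 0.99. NPC2, which binds cholesterol in the lumen and hands it to NPC1 in the membrane, was 93.9, 100.3 and 99.9 TPM in DMSO and 177, 181 and 193 TPM with MS023, a difference of 0.90. NPC1 itself was 7.59 ± 0.607 TPM in DMSO and 8.23 ± 0.98 TPM with MS023 (SD, n = 3), a difference of 0.10 that was not called. SMPD1, the acid sphingomyelinase, was low, with 2.91, 2.90 and 2.27 TPM in DMSO and 4.64, 6.44 and 6.64 TPM with MS023, a difference of 0.90. LIPA, the acid lipase, passed the fold threshold by a narrow margin at 0.48, and ASAH1, the acid ceramidase, was not called at 0.27.

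Of the 5 membrane proteins, CD63, SCARB2 and LAMP1 were called higher. CD63 differed by 0.95. SCARB2, the receptor that carries glucocerebrosidase to lysosomes, went from 16.6 ± 0.57 to 30.5 ± 2.54 TPM (SD, n = 3), a difference of 0.83. LAMP1 differed by 0.51, while LAMP2, its close relative, was 35.8 ± 0.878 TPM in DMSO and 34.4 ± 1.48 TPM with MS023 (SD, n = 3), a difference of -0.06 that was not called and whose sign turned with both rescalings. MCOLN1, the calcium channel TRPML1, was not called at 0.33, although its Benjamini-Hochberg adjusted p of 0.0240 in limma was below the limit.

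The V-ATPase subunits ATP6AP1 and ATP6V0D1 were called higher, with differences of 0.70 and 0.65, and ATP6V1H was not, at 0.38. Of the transcription factors, TFE3 was 16.4, 14.7 and 15.9 TPM in DMSO and 23.4, 22.0 and 22.5 TPM with MS023, a difference of 0.50 that was called. TFEB was 14.4, 12.2 and 17.6 TPM in DMSO and 11.5, 13.4 and 14.6 TPM with MS023, a difference of -0.14 with overlapping samples. TFE3, LIPA and LAMP1 lay near the fold threshold. Without DMSO replicate 2 all 3 fell under it, without MS023 replicate 1 TFE3 and LIPA did, without DMSO replicate 3 LIPA did, and without MS023 replicate 3 LAMP1 did.

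Among the 28 genes with a start-site window, the 8 with CACGTG included 6 called higher and 0 lower, with a median difference of 0.80 in log2(TPM+1). The 20 without it included 9 called higher and 2 lower, with a median of 0.27. MCOLN1 and GAA carry the letters and were not called, and FUCA1, GRN and NPC2 lack them in this window and were called higher. The 9 genes with no window, which fall in neither group, included 5 called higher, LGMN, CTSB, PSAP, CTSK and CTSS, LGMN and CTSB being the largest rises of the set. The counts are a description of few genes, and no test was made.

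Markers of the cell itself moved in the same samples. With MS023, 6 of the 10 plasma cell markers were called higher and 1 lower, beside 11.6% and 19.3% of all genes. Their summed level went from between 5545 and 5795 TPM to between 11773 and 12132 TPM. Most of this sum was JCHAIN, the joining chain of secreted antibody, at 4836 ± 117 and 10537 ± 184 TPM (SD, n = 3). Of the 12 macrophage and monocyte markers only FCER1G reached the level at which genes were tested, and it did so through the MS023 group alone, so no call is read from it. It was at 0.127 ± 0.0491 TPM in DMSO and 1.23 ± 0.803 TPM with MS023 (SD, n = 3). The summed macrophage markers were between 0.487 and 1.19 TPM in DMSO and between 1.18 and 4.88 TPM with MS023. The part of these markers in the rise of the lysosomal genes was not tested.

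PRMT1-KO cells showed a change in few of the genes, again led by peptidases. Of the 36 genes tested, 4 were called higher than in isgCtrl (CTSH, LGMN, CTSS and NPC2), 0 lower and 32 not. Over all 12285 genes tested, 0.415% were called higher and 0.366% lower, 0.781% in all. CTSZ, at 1.00 ± 0.36 TPM in isgCtrl and 0.558 ± 0.225 TPM in PRMT1-KO (SD, n = 3), was too low to be tested. The median difference of the set was 0.09 in log2(TPM+1), against -0.04 for all genes, and it was above 0 for 27 genes of the set and 39.5% of all genes. The 4 genes called were also called higher with MS023, as 54.1% of the set was, and the pairs share no samples. The share of all genes called in both pairs was not computed, so this overlap is a description only.

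CTSH, on chromosome 15 from 78921058 to 78949574 on the minus strand, was 22.1, 23.9 and 22.9 TPM in isgCtrl and 42.5, 41.9 and 37.5 TPM in PRMT1-KO. The mean was 177% of the control, a difference of 0.80 ± 0.07 (SE) (Benjamini-Hochberg adjusted p of limma = 0.0200). LGMN was 13.4, 14.0 and 12.8 TPM in isgCtrl and 24.2, 23.5 and 23.6 TPM in PRMT1-KO, also 177% of the control, a difference of 0.78 ± 0.05 (SE) (Benjamini-Hochberg adjusted p of limma = 0.00999). CTSH and LGMN are both among the genes the study displayed from these samples, and their calls are no independent evidence of a direction of the set.

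CTSS, on chromosome 1 from 150730079 to 150765957 on the minus strand, was 45.4, 44.3 and 41.9 TPM in isgCtrl and 66.7, 66.8 and 68.2 TPM in PRMT1-KO, a difference of 0.61 ± 0.05 (SE) (Benjamini-Hochberg adjusted p of limma = 0.0200). NPC2, on chromosome 14 from 74476192 to 74494177 on the minus strand, was 48.1, 48.7 and 50.4 TPM in isgCtrl and 67.9, 65.6 and 76.5 TPM in PRMT1-KO, a difference of 0.50 ± 0.07 (SE) (Benjamini-Hochberg adjusted p of limma = 0.0468). No knockout sample of the 4 genes overlapped a control.

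Fewer of the 4 genes were called when any of the 6 samples was left out. Leaving out isgCtrl replicate 3 left LGMN called, leaving out PRMT1-KO replicate 3 left CTSH called, and leaving out any of the other 4 samples left 0 of the genes called. The differences stayed between 0.75 and 0.81 for LGMN, 0.76 and 0.85 for CTSH, 0.57 and 0.63 for CTSS and 0.44 and 0.55 for NPC2. NPC2 also lost its call with a pseudocount of 0.1 and without a filter before the adjustment (adjusted p = 0.0552 and 0.0687 in limma after Benjamini-Hochberg correction). With the replicate number as a block, 0 of the 4 genes and 0 of all genes were called. Each of the 4 then had a Benjamini-Hochberg adjusted p of 0.168 in limma. The labels state no pairing by that number. With TPM rescaled by median ratios or quantiles, the share of all called genes that were lower went from 46.9% to 31.6% and 30.1%, and the 4 genes were still called.

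**Figure D4:**
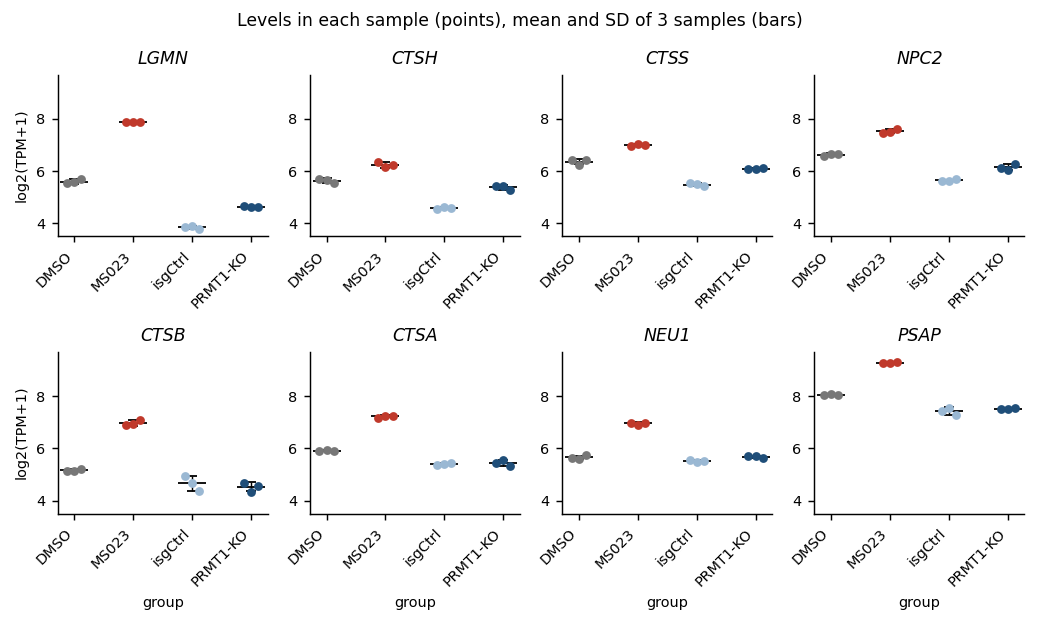
Level of 8 lysosomal genes in each sample (points) with the mean and SD of 3 samples (bars), in log2(TPM+1) on an axis that starts at 3.5. LGMN, CTSH, CTSS and NPC2 were higher in PRMT1-KO than in isgCtrl without overlap, and CTSB, CTSA and PSAP overlapped there. All 8 were higher with MS023 than with DMSO.

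FUCA1 was 52.8, 54.3 and 57.6 TPM in isgCtrl and 74.1, 69.3 and 74.3 TPM in PRMT1-KO, a difference of 0.40 under the fold threshold (Benjamini-Hochberg adjusted p of limma = 0.0482). Thus 5 of the 36 genes had an adjusted p under 0.05 at any fold change, against 1.28% of all genes. TPP1, the tripeptidyl peptidase, followed with a difference of 0.35 (Benjamini-Hochberg adjusted p of limma = 0.0932). In 15 of the 36 genes every PRMT1-KO sample lay above every isgCtrl sample, which held for 9.11% of all genes, and in 0 of them below. An unadjusted p under 0.05 was found for 12 of the 36 genes and for 18.6% of all genes.

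The genes with the largest rise with MS023 after LGMN were not called in PRMT1-KO. CTSB was 29.9, 24.6 and 19.8 TPM in isgCtrl and 24.6, 19.2 and 22.4 TPM in PRMT1-KO, a difference of -0.14 whose 95% confidence interval in limma reached from -0.55 to 0.26. CTSA was 40.5, 41.4 and 42.7 TPM in isgCtrl and 42.8, 46.0 and 39.0 TPM in PRMT1-KO, a difference of 0.03. NEU1 was 45.6, 43.3 and 44.6 TPM in isgCtrl and 51.1, 51.0 and 48.5 TPM in PRMT1-KO, a difference of 0.17 that was not called although the samples did not overlap. CTSD was 66.9, 68.5 and 59.8 TPM in isgCtrl and 70.9, 71.2 and 65.0 TPM in PRMT1-KO, a difference of 0.09.

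CTSK and SMPD1 stayed low in the guide groups. CTSK was 1.60, 1.97 and 1.74 TPM in isgCtrl and 1.62, 1.19 and 1.53 TPM in PRMT1-KO, and SMPD1 was 1.64, 2.02 and 4.28 TPM in isgCtrl and 1.99, 2.79 and 3.42 TPM in PRMT1-KO. Both overlapped and neither was called. TFEB was 15.4, 14.4 and 13.6 TPM in isgCtrl and 17.2, 16.2 and 15.7 TPM in PRMT1-KO, and TFE3 was 17.9, 17.6 and 17.4 TPM in isgCtrl and 19.3, 19.0 and 18.6 TPM in PRMT1-KO. For both factors the knockout samples were all above the controls, with differences of 0.17 and 0.10 that were not called. The other genes had differences between -0.28, for CTSL, and 0.26, for HEXA. The plasma cell markers summed to between 2766 and 2836 TPM in isgCtrl and between 2980 and 3168 TPM in PRMT1-KO. Of the 9 tested, 0 were called in limma and 2 had an unadjusted p under 0.05, beside 0.781% and 18.6% of all genes. Their part in the 4 calls was not tested.

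**Figure D5:**
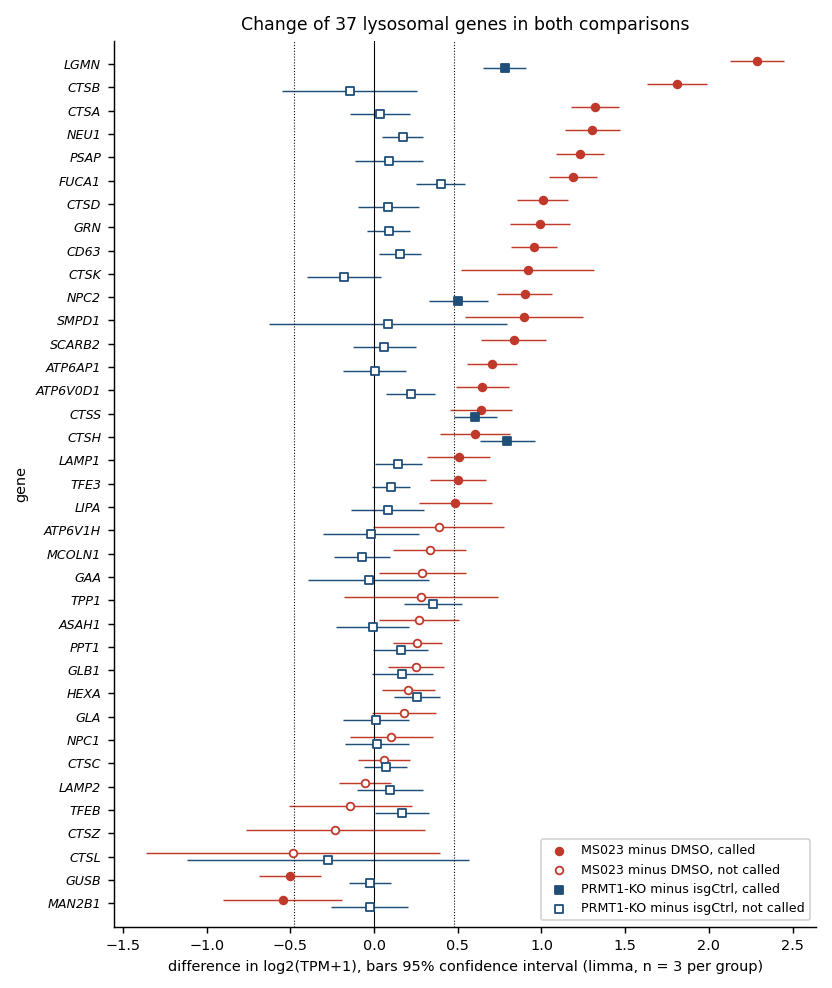
Difference in log2(TPM+1) of each gene with its 95% confidence interval from limma (n = 3 per group), for MS023 minus DMSO (circles) and PRMT1-KO minus isgCtrl (squares). Filled symbols were called, dotted lines mark a difference of 0.48 in size, and CTSZ has no square because it was not tested. The circles run from -0.55 to 2.29 and the squares from -0.28 to 0.80.

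The response to MS023 and that to PRMT1-KO differed for many of the genes when the difference of the effects was tested in limma on all 12 samples. The effect of MS023 was called higher for 12 of the 37 genes and lower for 1 (MAN2B1), while 9.69% of the 13256 genes tested were called higher and 14.7% lower, 24.4% in all. With no fold threshold 20 of the 37 genes passed the adjusted p of limma, against 35.6%. The largest differences of effects were 1.95 for CTSB, 1.51 for LGMN, 1.29 for CTSA, 1.14 for PSAP and 1.13 for NEU1 in log2(TPM+1). CTSK, CTSD, GRN, CD63, FUCA1, SCARB2 and ATP6AP1 followed with 1.10 to 0.70. LGMN was thus called in both pairs and still rose more with MS023, with a 95% confidence interval of 1.34 to 1.68 for the difference.

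CTSS and CTSH were the called genes with the closest effects. For CTSS the difference of effects was 0.03 with a 95% confidence interval of -0.16 to 0.22, and for CTSH it was -0.19 with an interval of -0.43 to 0.05 (Benjamini-Hochberg adjusted p of limma = 0.784 and 0.195). These intervals leave out a difference as large as that of LGMN, and they do not show that the effects were equal. NPC2 had a difference of 0.40, under the fold threshold (Benjamini-Hochberg adjusted p of limma = 0.00827). For MAN2B1 the call was lost without any single sample except DMSO replicate 1 and MS023 replicate 3, with adjusted p up to 0.109 in limma after Benjamini-Hochberg correction.

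The control populations themselves had different levels of these genes. In 26 of the 37 genes every isgCtrl sample was below every DMSO sample, against 19.9% of 12661 genes, in 3 (ATP6V0D1, ATP6V1H and TFE3) every one was above, against 31.8%, and in 8 they overlapped. Either way 51.7% of all genes did not overlap. The median difference of the set was -0.38 in log2(TPM+1). LGMN was lower by the most, with a difference of -1.75, followed by CTSZ at -1.48, CTSH at -1.05, ASAH1 at -1.02 and NPC2 at -0.98. The PRMT1-KO mean lay between the isgCtrl and DMSO means for 21 genes, LGMN, CTSH, CTSS and NPC2 among them. For 31 genes MS023 gave the highest of the 4 group means. These 2 orders were counted in the 37 genes only, with no share over all genes beside them. The isgCtrl mean also enters both differences of the first order, so no direction is read from it.

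No test was made of isgCtrl against DMSO. Cas9, guide vector, sorting, puromycin and Dox are stated for the guide cells only and the vehicle for DMSO only, and these cannot be told apart. Plasma cell markers differed there in both directions. Of the 10, 6 had every isgCtrl sample below every DMSO sample, and 4 (XBP1, IRF4, PRDM1 and POU2AF1) had every one above. Over all genes these shares were 19.9% and 31.8%. IRF4, a transcription factor of plasma cells, was 95.1 TPM in DMSO and 157 TPM in isgCtrl on average. Among those that were lower, MZB1, a chaperone of antibody-secreting cells, was 105.3 ± 2.16 TPM in DMSO and 2.01 ± 0.375 TPM in isgCtrl (SD, n = 3), and SLAMF7, a surface receptor of plasma cells, was 9.32 ± 0.652 and 0.369 ± 0.195 TPM (SD, n = 3). JCHAIN was 4836 ± 117 TPM in DMSO and 1972 ± 32.2 TPM in isgCtrl (SD, n = 3). The markers named here were chosen after their values were seen, and their part in the levels of the lysosomal genes was not tested.

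A further 163 genes of the lysosome and of autophagy, in 7 lists, placed the set in its pathway. Of the 150 that were tested with MS023, 34 were called higher and 9 lower, with a median difference of 0.09. These are 22.7% higher and 6% lower, 28.7% in all, beside 11.6% higher, 19.3% lower and 30.9% in all over the 12903 genes tested. Among 31 other lysosomal enzymes 11 were higher and 3 lower, led by SIAE (a sialic acid esterase) at 1.05, SGSH (a sulfatase for heparan sulfate) at 1.01 and SCPEP1 (a carboxypeptidase) at 0.86. Among 28 other membrane proteins 8 were higher and 3 lower, led by CD68 at 1.57, LAPTM5 at 1.13 and GLMP at 1.12. Among 16 other V-ATPase subunits 4 were higher and 0 lower, led by ATP6V0E2 at 1.10 and ATP6V0A1 at 1.06.

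Of 19 genes that deliver enzymes to the lysosome 2 were higher and 1 lower. These are 10.5% higher and 15.8% in all, beside 11.6% and 30.9% of all genes. The higher ones were GNPTAB, which builds the mannose 6-phosphate tag, at 0.55 and IGF2R, a receptor for that tag, at 0.52. The lower one was the retromer subunit VPS35 at -0.54. Of 20 genes for MiT/TFE and mTORC1 control 1 was called, the Rag GTPase RRAGC at 0.54, which is 5% beside 30.9% of all genes. Of 34 genes for autophagy and lysosome fusion 7 were higher and 2 lower, 26.5% in all beside 30.9% of all genes, with the largest changes for the receptor SQSTM1 at 1.76, the phosphoinositide-binding protein WIPI1 at 1.31 and the receptor OPTN at 1.29. Of 2 cystatins tested, which inhibit cathepsins, CSTB was higher at 0.81. The shares of these lists were compared with each other by no test.

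In PRMT1-KO 0 of the 150 further genes tested were called in limma, where 0.781% of all genes were, and the median difference was 0.01. An unadjusted p under 0.05 was found for 25 of them (16.7%), beside 18.6% of all genes. LAPTM4B, a membrane protein of late endosomes, was the only such gene with an adjusted p under 0.05, and it was chosen after its value was seen, with a difference of 0.41 below the fold threshold (Benjamini-Hochberg adjusted p of limma = 0.0367). The difference of the effects was called higher for 32 and lower for 9 of the 150, which is 27.3% in all beside 24.4% of all genes.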

How the data were processed

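RNA of 12 JJN3 samples was sequenced. The study's methods name FastQC for read quality, Trimmomatic for trimming, STAR for mapping to hg38 (GENCODE V35) and Salmon for quantification. The authors deposited log2 values, log2(TPM+1) per gene symbol, and these were used as they stand. TPM were recovered from them by taking off the pseudocount of 1, and since TPM sum to the same total in every sample no count model was used. Groups came from the labels. The 37 genes, the lists and the tests were chosen with earlier results of these data known, LGMN and CTSH being among genes that the study displayed.

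Models were fitted in limma 3.58.1 (R 4.3.3, eBayes without trend) to every gene whose mean log2(TPM+1) was above 1 in any group compared, on the 6 samples of a pair, or on all 12 for the difference of the effects. A call needed an adjusted p (Benjamini-Hochberg) under 0.05 and a difference above 0.48 in size. Two-sided exact permutation tests were run for single genes, and ± is the SD unless marked SE. The code was tested on simulated data.

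Values per sample were given for genes called in PRMT1-KO, the 12 largest called changes with MS023, TFEB, TFE3 and the 5 highest genes. In other lists up to 3 of the largest called genes were named. Positions come from GENCODE v44 (GRCh38), which is not the release the authors used, and start-site windows from RefSeq GRCh38.p14, read with python 3.11.15 and pandas 2.3.3. Alternatives were other filters, scaling by median ratios or quantiles, a pseudocount of 0.1, a trended prior in eBayes, the replicate number as a block, a joint fit of all 12 samples, each replicate left out and other thresholds. The study's other assays were not analysed here.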

Additional observations from a re-analysis of the deposited data

Results flagged for a closer look

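For 13 of the 37 genes the effect of MS023 differed from that of PRMT1-KO in a test of the difference itself (limma on all 12 samples, Benjamini-Hochberg adjusted p under 0.05 and a difference above 0.48 in size), which 24.4% of the 13256 genes tested did. For 12 of them the effect of MS023 was higher, by 1.95 for CTSB, 1.51 for LGMN, 1.29 for CTSA, 1.14 for PSAP, 1.13 for NEU1, 1.10 for CTSK, 0.92 for CTSD, 0.90 for GRN, 0.80 for CD63, 0.79 for FUCA1, 0.77 for SCARB2 and 0.70 for ATP6AP1, in log2(TPM+1). For MAN2B1 it was lower, at -0.52. MS023 was given to wildtype cells and PRMT1 was cut in Cas9 cells with 1 guide, so the agent and the cell population cannot be told apart in this difference.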

How the results depend on the processing

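The values of PRMT1 and the 37 genes were followed through every alternative that left the thresholds unchanged. Sign and side of the thresholds were kept by 28 of 38 with MS023 and by 21 of 37 in PRMT1-KO. For the difference of the effects 22 of 37 kept them. Runs with other thresholds do not enter these counts. The cause of the changes was not tested unless the alternative itself names it.

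With MS023 the 2 genes called lower became 1 without a filter before the adjustment, 0 with median-ratio scaling, 0 with quantile normalization and 0 to 2 with a replicate left out. A threshold of 1 on the log2 difference left 7 genes called, 7 higher and 0 lower, and 10 genes of the other lists. No fold threshold gave 75 genes of the other lists. Over all genes these 2 settings gave 1083 and 6300 calls against 3986. With scaling, LAMP2 turned to 0.046 (median ratio) and 0.052 (quantile), TFEB to 0.011 (quantile) and PRMT1 to -0.030 (quantile).

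In PRMT1-KO the 4 calls became 0 with a threshold of 1 and 0 to 1 with a replicate left out. The other lists, with 0 calls, had 1 with a pseudocount of 0.1, 1 with eBayes with trend, 1 with all 12 samples in one fit, 1 without a fold threshold and 3 at an adjusted p under 0.25. Over all genes the 96 calls became 46 without a filter, 157 without a fold threshold, 9 with a threshold of 1, 365 at an adjusted p under 0.25 and 2 to 21 with a replicate left out. NPC2 lost its call without a filter (Benjamini-Hochberg adjusted p of limma = 0.0687). Small differences turned with scaling, to 0.0031 and 0.012 for GAA, 0.012 and 0.015 for GUSB, 0.011 and 0.0055 for MAN2B1, 0.030 and 0.029 for ASAH1 and 0.016 and 0.029 for ATP6V1H (median ratio and quantile). With a replicate left out, sign changes occurred within -0.086 to 0.036 for ASAH1, -0.045 to 0.061 for ATP6AP1, -0.13 to 0.047 for ATP6V1H, -0.022 to 0.095 for CTSA, -0.63 to 0.037 for CTSL, -0.16 to 0.062 for GAA, -0.042 to 0.073 for GLA, -0.11 to 0.021 for MAN2B1, -0.023 to 0.078 for NPC1 and -0.12 to 0.38 for SMPD1.

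For the difference of the effects, the 1 gene called lower became 0 without a filter, 0 with median-ratio scaling, 0 with quantile normalization and 0 to 2 with a replicate left out. No fold threshold gave 20 genes, 2 of them lower, and 62 of the other lists. A threshold of 1 gave 6 genes, 6 higher and 0 lower, and 2 of the other lists. Scaling turned CTSC to 0.073, TPP1 to 0.0053 and HEXA to 0.031 (median ratio), and TPP1 to 0.042 (quantile). With a replicate left out, sign changes occurred within -0.035 to 0.028 for CTSC, -0.56 to 0.17 for CTSL, -0.028 to 0.070 for CTSS, -0.069 to 0.31 for CTSZ and -0.20 to 0.095 for TPP1.

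The labels number the replicates 1 to 3 in each group and state no pairing. Same-numbered samples deviated from their group means with r of 0.021 to 0.102 for MS023 and DMSO and -0.142 to 0.070 for PRMT1-KO and isgCtrl. For MS023 and DMSO the mean r was 0.065 with the same number and -0.033 with different numbers. For PRMT1-KO and isgCtrl it was -0.047 and 0.024. With 3 samples per group these values cannot decide whether a number marks a shared batch. With the replicate number as a block, PRMT1-KO had 0 genes of the set called, 0 higher, and 0 of all genes, with the lowest adjusted p of the set at 0.168 and 10 of its genes at an unadjusted p under 0.05. PRMT1 itself stayed at -1.50 with a Benjamini-Hochberg adjusted p of 0.149 in limma. The block left all 22 calls with MS023 and all 13 of the difference in place. TPM keep no depth, so the counting error of low genes such as CTSL, CTSZ, CTSK and SMPD1 is unknown.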
